A study of Mus musculus with 12 samples.

Results

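Resting bone marrow-derived mast cells (BMMCs) labelled *Elk4* KO were compared with resting BMMCs labelled *Elk4* HZ (heterozygous). The members of the comparison were the 4 libraries whose labels gave an HZ or KO genotype and no treatment, 2 of each, out of 12 libraries in all. BMMCs are mast cells grown from bone marrow of the femurs and tibias in medium with IL-3 and SCF for 4 to 8 weeks, and over 80% of the cells stained for both CD117 and FcϵRI. The conventional knockout was carried on a C57BL/6N background, and per the methods the donors were 6 to 12 weeks old, of both sexes. The labels gave neither the sex of a donor nor whether replicates 1 and 2 of a genotype came from separate animals, so p-values measure the spread between these libraries. The remaining 8 libraries were resting WT littermates (2 libraries) and the same 3 genotypes after anti-DNP IgE overnight (0.5 µg/ml) and DNP-HSA antigen for 1 h (100 ng/mL). All 12 libraries entered 1 fit and shared its estimate of the spread.

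ELK4 is a ternary complex factor (TCF), a subfamily of ETS transcription factors that includes ELK1 and ELK3. TCFs bind DNA together with serum response factor (SRF), and phosphorylation by ERK lets them switch on immediate-early genes, a class of genes transcribed within minutes of a signal and before any new protein is made. Many immediate-early genes (*Fos*, *Jun*, *Egr1*) encode transcription factors, while others encode brakes on the same signal. In mast cells, crosslinking of IgE on its receptor FcϵRI triggers this programme together with the release of histamine, which the enzyme HDC makes from histidine.

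The 4 libraries held 30550159 to 33994669 counts on genes. Replicates of a genotype differed little, with a biological coefficient of variation of 4.01% over the series, yet by more than counting noise (chi-square over its degrees of freedom of 5.30 for HZ and 3.76 for KO). Both genotypes carried mast cell markers at high levels. *Kit*, the SCF receptor, had 4912 ± 94.0 CPM (read counts scaled to a common library size, with TMM factors for library composition) in HZ and 4742 ± 40.6 in KO, and *Fcer1a*, the IgE-binding chain, 4761 ± 151 and 4624 ± 126 (mean ± SD, n = 2). The summed CPM of 15 mast cell markers was lower in KO, at 71835 to 73202 in HZ and 64846 to 65970 in KO. Of these 15, 10 were lower in KO and 1 higher by the test used below. Markers of other cells moved as well. The summed CPM of 6 basophil markers was 674 to 675 in HZ and 471 to 474 in KO, nearly all of it *Cd200r3*. Of the 5 tested, 1 was higher and 1 lower in KO. The sum of 11 erythroid and megakaryocyte markers was 2936 to 2949 and 2164 to 2178, mostly the integrin chain *Itga2b*. Of the 7 tested, 1 was higher and 3 lower, and their median log2 fold change was 0.37, so these sums do not describe the whole lists. For 18 macrophage and monocyte markers the sums were 160 to 161 and 166 to 170, but single genes moved in opposite directions. Of the 10 tested, 4 were lower in KO and 1, *Cd68*, was higher. Neutrophil, eosinophil, dendritic cell and lymphocyte lists summed to at most 4.37 CPM in any of the 4 libraries, with *Ltf*, *S100a8*, *Ear6*, *Clec9a*, *Batf3*, *Cd209a*, *C1qa* and *Marco* at 0 in all 4. The part of these shifts in the results below was not tested, and in bulk RNA fewer cells of a type cannot be told apart from less RNA per cell.

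*Elk4* itself (NCBI Gene 13714) was read in every library. It had 3238 and 2837 counts in the HZ libraries, 2613 and 2253 in the KO libraries and 2426 and 2740 in the WT libraries, or 89.6 ± 5.10, 66.6 ± 4.37 and 75.8 ± 3.60 CPM. The KO libraries lay below both HZ libraries, and the WT libraries lay between them and HZ. The KO minus HZ difference was -0.43 on the log2 scale (SE 0.06, adjusted p = 3.61e-08). This p, like all adjusted p below, comes from edgeR's quasi-likelihood test, adjusted by Benjamini-Hochberg over all genes tested. A number in brackets after a gene, where not named otherwise, is its KO minus HZ log2 fold change. After stimulation the counts were 2139 and 1883 in HZ and 1867 and 1971 in KO, and the difference was 0.07 (adjusted p = 0.440). A count over the whole gene does not show whether an exon is missing, so these values do not check the genotype labels, and KO and HZ stand throughout for libraries labelled as such. Of the other TCFs, *Elk1* was at 0.04 (adjusted p = 0.762) and *Elk3* fell (-0.35). *Srf*, the DNA-binding partner, rose (0.52) and its actin-sensing coactivator *Mrtfa* fell (-0.56). *Ets1* was the only one of 18 TCF, SRF and ETS genes past both thresholds, with 483 and 448 counts in HZ and 175 and 132 in KO (log2 fold change -1.71). Among the 10 genes tested on each side of *Elk4*, none was called, against 3.36% of all genes, and 2 were higher and 7 lower by the adjusted p alone, with log2 fold changes from -0.55 (*Ctse*) to 0.54 (*Cdk18*).

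Across 12208 genes tested, 158 (1.29%) were higher and 252 (2.06%) lower in KO than in HZ with an adjusted p under 0.05 and a change of 2-fold or more, in all 410 (3.36%). Genes past both thresholds are named called below. Without the fold threshold 2854 (23.4%) were higher and 2661 (21.8%) lower, and the KO and HZ libraries did not overlap in CPM at 8607 genes (70.5%). These shares are the background for each group of genes that follows. TMM centres the fold changes, and their median over all genes was -0.00. The called genes had a median log2 fold change of 1.42 where higher and -1.50 where lower. Of them, 91 and 115 averaged 100 counts or more in the genotype with the higher level, and 10 and 13 of these changed 4-fold or more.

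**Figure D1:**
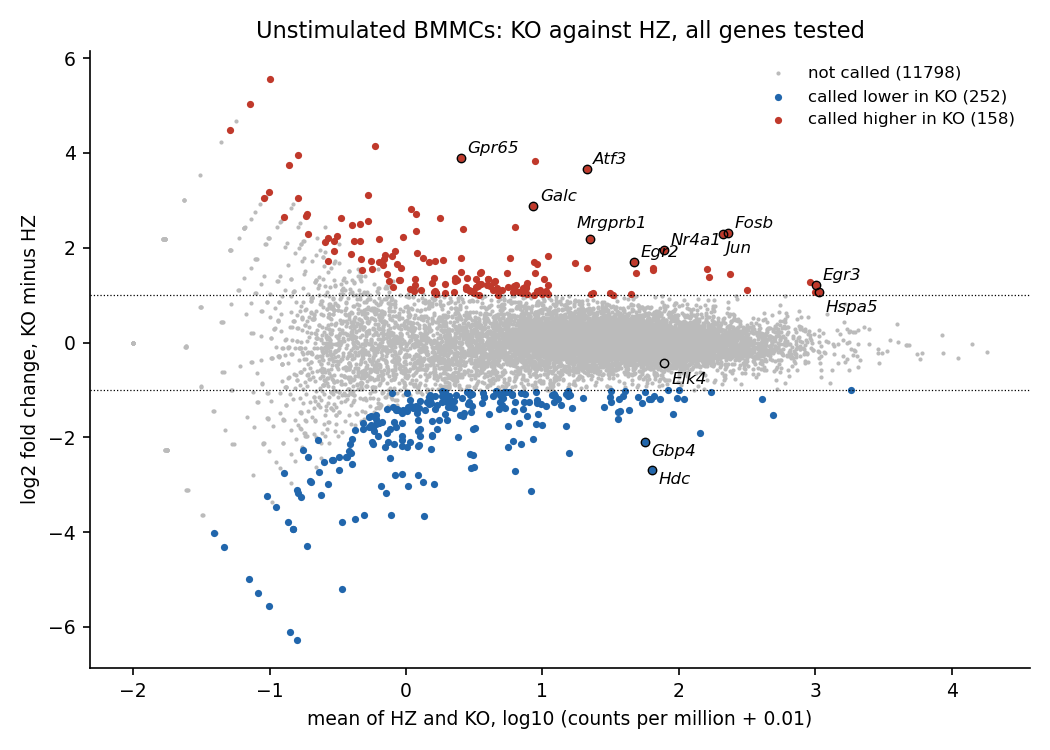
Each point is 1 of the 12208 genes tested, with its mean level in the 4 resting HZ and KO libraries on the horizontal axis (log10 of CPM + 0.01) and its KO minus HZ log2 fold change on the vertical axis, and dotted lines mark 2-fold. The 158 genes called higher are red and the 252 called lower blue. At high levels *Fosb*, *Jun*, *Nr4a1* and *Egr3* stand out above and *Hdc* and *Gbp4* below, while *Elk4* sits inside the dotted lines at -0.43.

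Of all gene lists examined, the immediate-early genes held the most called members. Of 34 tested, 12 were called higher and none lower, against 1.29% and 2.06% of all genes, and without the fold threshold 27 were higher and 4 lower. Their median was 0.86. The direction was upward in KO, in cells that had received no antigen.

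The FOS and JUN proteins pair to form AP-1. *Fosb* had 2639 and 2513 counts in HZ and 13915 and 13807 in KO (76.1 ± 0.152 and 380 ± 12.8 CPM). Its log2 fold change was 2.32 (SE 0.03, adjusted p = 9.41e-47). *Jun* had 2415 and 2431 counts in HZ and 13097 and 12386 in KO (2.29, SE 0.03, adjusted p = 1.49e-45). *Fosl1* had 17 and 16 counts against 105 and 115 (2.62), and *Fos* 84 and 90 against 253 and 209 (1.30). In all 4 genes both KO libraries exceeded both HZ libraries. *Junb* did not pass, with 6849 and 6397 counts in HZ and 7336 and 6617 in KO (-0.03, adjusted p = 0.351).

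*Atf3*, a stress-induced repressor of the same bZIP family, had the largest fold of the called immediate-early genes. It had 114 and 93 counts in HZ and 1394 and 1451 in KO, which is 3.05 ± 0.327 against 39.0 ± 2.63 CPM and 12.7-fold higher (log2 fold change 3.67, SE 0.07, adjusted p = 1.75e-37). *Maff*, a small MAF partner protein, had 122 and 78 against 325 and 268 counts (1.46).

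EGR proteins are zinc finger activators that NAB1 and NAB2 restrain. *Egr2* had 724 and 757 counts in HZ and 2761 and 2454 in KO (1.71, adjusted p = 3.00e-35), and *Egr3* 21315 and 19958 against 53764 and 49654 (1.22, adjusted p = 4.41e-43). *Egr4* was sparse, at 1 and 9 counts in HZ and 38 and 27 in KO (2.56, SE 0.45). *Egr1* missed the 2-fold line narrowly, at 6216 and 5791 against 13482 and 12133 counts (0.98, SE 0.02). The corepressors fell, *Nab1* (-0.34) and *Nab2* (-0.30) alike.

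The orphan nuclear receptor *Nr4a1* had 1127 and 1016 counts in HZ and 4525 and 4455 in KO, or 31.6 ± 1.16 and 123 ± 3.45 CPM (1.96, adjusted p = 2.69e-43). Its relatives rose by less, *Nr4a3* (0.85) and *Nr4a2* (0.71). *Klf2*, a Kruppel-like factor tied to quiescence in lymphocytes, had 1103 and 1112 against 3736 and 3368 counts (1.57). *Zfp36*, which binds AU-rich elements and speeds decay of cytokine mRNA, had 219 and 179 against 569 and 511 (1.33). Besides *Nab1* and *Nab2*, *Ier3* (-0.11) and the antiproliferative gene *Btg2* (-0.62) fell.

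The promoters of *Egr2*, *Zfp36* and *Nr4a1* are shown because they hold the letters a TCF or SRF reads. That of *Maff*, which also holds such letters, is not shown. The promoter of *Hdc*, the enzyme described further on, is shown because it holds none of them. Capitals mark CCGGAA, the core of an ETS site, and the CArG box, the site of SRF, on either strand. Each is the 250 bases before the start of the gene, 5′ to 3′ on the gene's strand, from RefSeq on GRCm38.p6. They are *Egr2* at chr10:67537316-67537565 (plus strand, 1 of its 5 start sites), *Zfp36* at chr7:28379229-28379478 (minus strand), *Nr4a1* at chr15:101266596-101266845 (plus strand) and *Hdc* at chr2:126618679-126618928 (minus strand).
Egr2: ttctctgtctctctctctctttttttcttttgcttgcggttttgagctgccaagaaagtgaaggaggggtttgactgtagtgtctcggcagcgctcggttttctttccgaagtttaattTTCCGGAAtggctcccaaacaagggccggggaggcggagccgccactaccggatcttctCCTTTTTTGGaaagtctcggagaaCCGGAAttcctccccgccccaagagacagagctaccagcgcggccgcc
Zfp36: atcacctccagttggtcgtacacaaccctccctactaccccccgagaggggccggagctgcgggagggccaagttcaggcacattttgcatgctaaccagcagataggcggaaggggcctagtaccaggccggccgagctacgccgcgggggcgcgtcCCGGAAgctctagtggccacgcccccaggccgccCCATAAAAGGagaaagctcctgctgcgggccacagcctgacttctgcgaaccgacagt
Nr4a1: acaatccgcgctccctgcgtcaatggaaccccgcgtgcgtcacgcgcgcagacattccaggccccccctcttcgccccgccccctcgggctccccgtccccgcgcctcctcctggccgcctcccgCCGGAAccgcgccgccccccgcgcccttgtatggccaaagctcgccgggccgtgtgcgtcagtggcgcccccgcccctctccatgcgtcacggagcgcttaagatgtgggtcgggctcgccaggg
Hdc: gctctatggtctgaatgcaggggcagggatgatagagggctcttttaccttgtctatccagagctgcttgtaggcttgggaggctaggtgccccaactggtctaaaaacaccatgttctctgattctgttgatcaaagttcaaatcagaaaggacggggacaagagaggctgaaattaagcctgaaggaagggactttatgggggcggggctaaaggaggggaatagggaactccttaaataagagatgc

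In *Egr2* the ETS core lay 131, 129 and 48 bases before the start, the first 2 of these overlapping on opposite strands. The CArG box lay 72 bases before it, between the ETS cores. The start site shown was the only one of *Egr2* whose window held CCGGAA. In *Zfp36* the ETS core was at 92 and the CArG box at 58 bases. In *Nr4a1* an ETS core stood alone at 125 bases. A match is a description of letters and not of binding.

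Windows of 300 bases (250 before and 50 after a start) were found for 9828 of the 12208 genes, 12526 windows in all. The CArG box occurred in 5 of 16 windows of the called immediate-early genes (31.2%, all in *Egr2* and *Zfp36*). It was in 4.24% of windows of genes called higher, in 1.63% of those called lower and in 1.24% of all windows. *Egr2* has 5 windows, so 1 gene counts more than once. The *Egr2* box shown lies between ETS cores, and only that *Egr2* window held CCGGAA. The other *Egr2* windows with a CArG box therefore held a different one. Of the 12 genes 10 had a window, so the CArG box was in 2 of 10 genes. CCGGAA occurred in 4 of those 16 windows (25.0%), 1 each of *Egr2*, *Maff*, *Nr4a1* and *Zfp36*, in 14.5% of windows of genes called higher, in 13.9% of those called lower and in 27.3% of all. The AP-1 site TGANTCA was in 9.70% of windows of genes called higher, 7.76% of those called lower and 5.07% of all. The cAMP response element TGACGTCA was in 3.03%, 1.63% and 2.99%. These shares are descriptions, and none was tested.

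**Figure D2:**
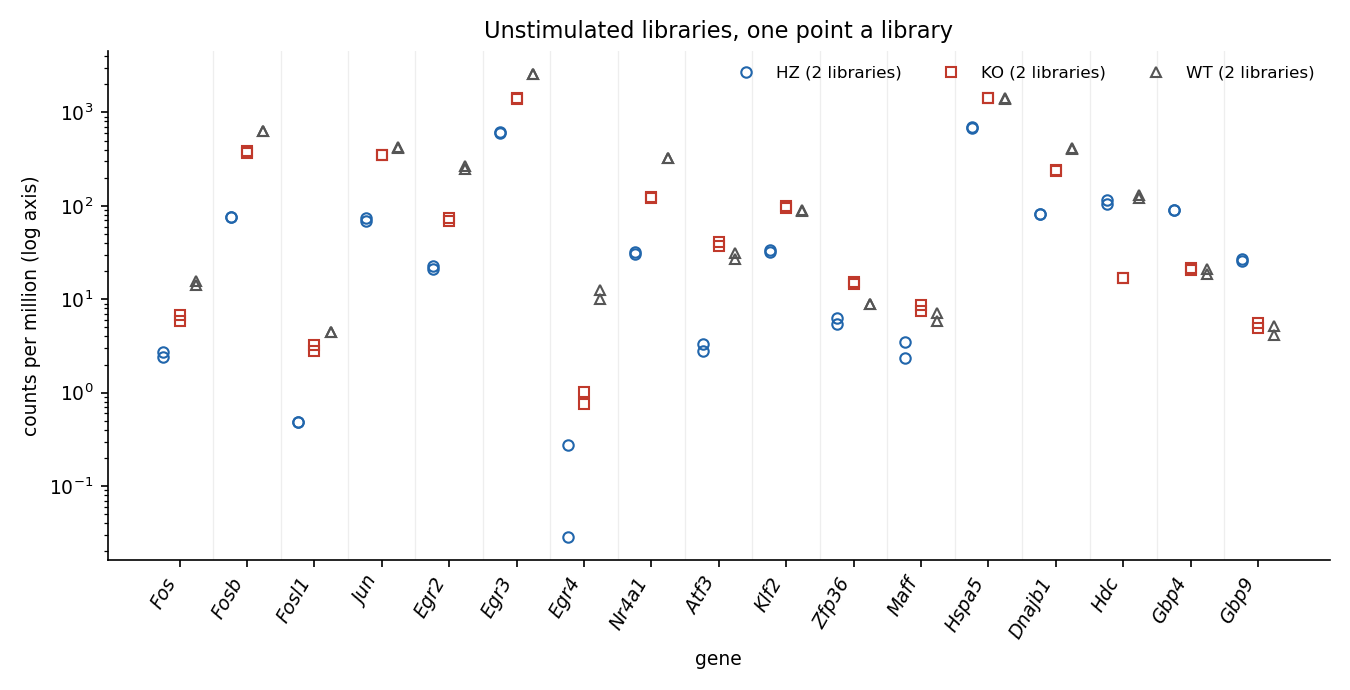
CPM of 17 genes on a log axis, 1 point a library, in the resting HZ (circles), KO (squares) and WT (triangles) libraries. For each gene the KO squares lie clear of the HZ circles, above them from *Fos* to *Dnajb1* and below them from *Hdc* to *Gbp9*. WT lies beyond KO at *Fosb*, *Jun*, *Egr2*, *Egr3* and *Nr4a1* among others, and is closer to HZ than to KO at *Zfp36* and *Hdc*.

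A list of 14 genes named for feedback on ERK was drawn up after the values were seen. In it 3 were called higher and none lower, and 9 were higher against 1 lower without the fold threshold (median 0.35). Of the 3, only *Dusp8* had more than a few reads, and it encodes a phosphatase of stress-activated MAP kinases. *Dusp8* had 166 and 132 counts in HZ and 540 and 479 in KO (1.66, adjusted p = 7.07e-17). The Sprouty genes *Spry1* (1 and 2 against 8 and 14 counts) and *Spry4* (0 and 2 against 9 and 6) were called from very few reads. *Spred3* fell (-0.97). In the TCF target list that the study took from published binding data, 4 of 68 genes were called higher (*Egr2*, *Fos*, *Nr4a1* and *Zfp36*) and none lower, with 25 higher and 11 lower without the fold threshold and a median of 0.08. Of 20 cytoskeletal targets of SRF, 8 were higher and 3 lower without the fold threshold (median 0.04), and the only one called, *Ccn1*, had 2 and 4 counts in KO and none in HZ.

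Chaperones were higher in KO. Of 15 heat shock chaperones tested, 13 rose and 1 fell (*Hspa4l*, -0.19) without the fold threshold, and 3 were called higher (median 0.55). *Dnajb1*, the HSP40 that hands substrates to HSP70, had 2852 and 2720 counts in HZ and 8883 and 8680 in KO (82.3 ± 0.254 and 241 ± 5.47 CPM, log2 fold change 1.55, adjusted p = 6.02e-39). The stress-inducible HSP70 gene *Hspa1a* had 23 and 22 against 61 and 45 counts (1.12), while its near-identical neighbour *Hspa1b*, which may share reads with it, was at 0.28 (adjusted p = 0.21). *Hsp90aa1* (0.98) and the mitochondrial *Hspd1* (0.75) rose. The letters GAANNTTC, the core of the heat shock element, occurred in 8 of 16 chaperone windows (50%) against 5.68% of all windows. They occurred in 4.85% of windows of genes called higher and 5.71% of those called lower, so they did not mark the called genes. The chaperone share describes that gene class and not a difference between KO and HZ, and none of these shares was tested.

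In the endoplasmic reticulum, *Hspa5* (BiP) had 24070 and 22379 counts in HZ and 53520 and 51076 in KO, or 686 ± 10.2 and 1433 ± 8.65 CPM (1.06, adjusted p = 3.87e-37). The lectin chaperone *Calr* had 22059 and 21404 against 49884 and 47695 (1.06). Of 18 ER chaperones and folding enzymes, listed after their values were seen, 17 rose and none fell without the fold threshold (median 0.42). Among them were *Sdf2l1* (0.76) and *Dnajb9* (0.73). *Sel1l*, at -0.03, did not pass. The wider KEGG pathway of protein processing in the ER was less uniform, with 70 of 156 genes higher and 26 lower without the fold threshold (median 0.11).

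DNA replication genes rose together, most of them by less than 2-fold. Of 43 S phase genes tested, 38 were higher and 1 lower (*Blm*, -0.35) without the fold threshold, against 23.4% and 21.8% of all genes, with a median of 0.56. Only *Cdc6*, which loads the replicative helicase, was called, with 272 and 217 counts in HZ and 561 and 515 in KO (1.03). The helicase subunit *Mcm2* had 3427 and 3147 against 6184 and 6131 counts (0.80), *Mcm5* stood at 0.76, the methylation maintenance factor *Uhrf1* at 0.86 and the ribonucleotide reductase subunit *Rrm2* at 0.78. In KEGG's DNA replication pathway 32 of 35 genes were higher and 1 lower (median 0.56). *Orc1*, of the origin recognition complex, is not among those 35 genes and rose past 2-fold, with 123 and 135 against 288 and 359 counts (1.22).

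Of 54 G2/M genes, 19 were higher and 9 lower without the fold threshold (median 0.11), and the 2 that were called were lower. *Psrc1*, a spindle protein, had 1479 and 1437 counts in HZ and 795 and 630 in KO (-1.14), and *Cenpa*, the centromeric histone, 948 and 896 against 470 and 415 (-1.17). Of the genes at the G1 boundary, *Ccne1* rose (0.93), the CDK inhibitor *Cdkn1b* fell (-0.68) and *Cdk6* fell (-0.50). *Ccnd1* was called higher from 12 and 10 against 46 and 29 counts. Of other cyclin, kinase and E2F genes, *Ccnb2* fell (-0.39), *E2f2* rose (0.45), and *Ccna2* (0.14, adjusted p = 0.0655) and *Cdk2* (0.08, adjusted p = 0.313) did not pass. Without the first KO or the second HZ library *Ccnb2* did not pass either (-0.29 and -0.27), and without the second KO library *E2f2* did not (0.31).

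In 5 further KEGG pathways most genes were higher by a small amount, and all of these but oxidative phosphorylation were chosen after their values were seen. Of ribosome biogenesis, 53 of 73 genes were higher and 4 lower without the fold threshold (median 0.36). For aminoacyl-tRNA synthesis the counts were 33 and 3 of 44 (0.36), for the proteasome 34 and 2 of 45 (0.24), for the spliceosome 85 and 7 of 128 (0.22) and for oxidative phosphorylation 66 and 8 of 105 (0.24). In KEGG's ribosome pathway 37 of 132 genes were higher and 62 lower (-0.06). Of the tRNA synthetases, the mitochondrial *Lars2* was called lower, at 21586 and 27820 counts in HZ and 9758 and 8773 in KO (-1.53). Its HZ libraries differed from each other (732 ± 157 CPM), as did those of WT (1461 ± 336).

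**Figure D3:**
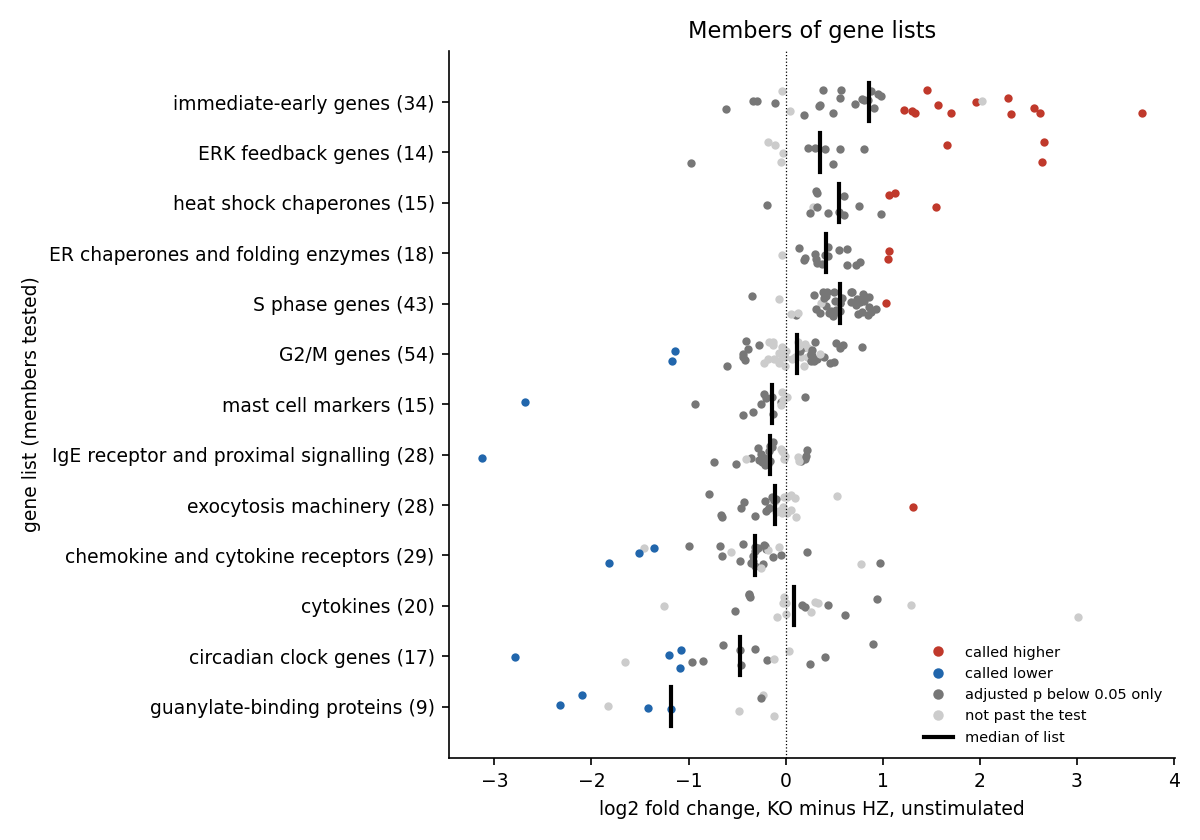
KO minus HZ log2 fold change of each tested member of 13 gene lists, with the number tested in brackets. Red and blue points are called genes, dark grey points have an adjusted p below 0.05 only, light grey points did not pass, and black bars are medians. The medians run from 0.86 for immediate-early genes to -1.18 for guanylate-binding proteins.

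*Hdc*, the histidine decarboxylase that makes histamine, had the largest change of the 15 mast cell markers tested. It had 3969 and 3438 counts in HZ and 635 and 606 in KO, or 109 ± 7.09 and 17.0 ± 0.103 CPM, 6.43-fold lower (log2 fold change -2.68, SE 0.05, adjusted p = 1.10e-38). The WT libraries held 4345 and 4259 counts, close to HZ. Its neighbour *Atp8b4* was also called lower (-1.26). The other mast cell markers changed by less than 2-fold. Of the 15, 1 was higher and 10 lower without the fold threshold (median -0.14), with the chymase *Mcpt4* at -0.93, *Gata2* at -0.44, the IL-33 receptor *Il1rl1* at -0.34 and carboxypeptidase *Cpa3* at -0.21. *Mitf*, a master regulator of the lineage, was at -0.05 (adjusted p = 0.413) and *Fcer1a* at -0.04 (adjusted p = 0.0897).

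*Ddc* and *Ctsg*, of granule content, were called lower as well. *Ddc*, which makes serotonin and dopamine by decarboxylation, had 1815 and 1819 counts in HZ and 1023 and 907 in KO (-1.02). *Ctsg*, the protease cathepsin G, had 1452 and 1447 against 746 and 782 (-1.03), far under the 10112 and 10750 counts of WT. Tryptophan hydroxylase *Tph1* (0.02) and the chymase *Cma1* (-0.03) lay near 0.

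Among 28 genes of the IgE receptor and its proximal signalling, 4 were higher and 16 lower without the fold threshold (median -0.16). The PI3K subunit *Pik3cd* fell from 1366 ± 25.4 to 821 ± 8.57 CPM (-0.73), and the adaptor *Sh2b3* (-0.51) fell too, as did the kinases *Lyn* (-0.25) and *Syk* (-0.13). *Lat* (0.16) and *Vav1* (0.21) rose.

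Receptors on the cell surface were mostly lower. Of 29 chemokine and cytokine receptors, 21 were lower and 2 higher without the fold threshold (median -0.31), and 3 were called. *Il9r* had 1385 and 1378 counts in HZ and 614 and 547 in KO (-1.36), *Epor* 200 and 204 against 87 and 66 (-1.51) and *Ccr2* 77 and 100 against 23 and 31 (-1.82). *Il18r1*, at 171 ± 7.61 and 85.6 ± 4.68 CPM, lay just under the 2-fold line. Of 34 inhibitory and accessory receptors, 20 were lower and 5 higher (median -0.23), and the inhibitory lectin *Siglecf* (15 and 30 against 5 and 3 counts) and *Tlr1* (38 and 33 against 17 and 12) were called lower, while *Mrgprb1* and *Gpr65* of the same list, described further on, were called higher. The exocytosis machinery shifted slightly, with 13 of 28 lower and 1 higher (median -0.11), the latter the calcium sensor *Syt3* at 16 and 18 against 60 and 32 counts. Of named degranulation and adhesion genes, *Cadm1* fell (-0.79), and *Syngr1* (0.10), *Exoc3l* (-0.13) and *Vcl* (-0.01) were near 0. The histone deacetylase gene *Sirt6* was near 0 as well (-0.04).

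None of 20 cytokine genes was called, with 5 higher and 4 lower without the fold threshold. *Il6* had 1012 and 1012 counts in HZ and 1502 and 1457 in KO (0.44, adjusted p = 2.06e-12), *Tnf* 69 and 97 against 160 and 183 (0.94, adjusted p = 8.67e-10), and *Il13* rose (0.61). *Csf1*, the growth factor of macrophages, fell (-0.38). Among 13 chemokines *Ccl2* fell (-0.32). *Ccl24*, an eosinophil attractant, had 24 and 18 counts in HZ and 2 and 1 in KO, and *Cxcl16* 102 and 109 against 40 and 56 (-1.24). *Ccl3* (0.16, adjusted p = 0.0405) and *Ccl4* (0.26, adjusted p = 0.00628) rose slightly, but without the first HZ library neither passed (0.09 and 0.02).

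Guanylate-binding proteins, interferon-inducible GTPases of cell-autonomous defence, were lower in KO. 4 of 9 were called lower and none higher, and their genes *Gbp8*, *Gbp9* and *Gbp4* are adjacent among the genes tested, next to *Abcg3*, which was also called lower. *Gbp4* had 3153 and 3005 counts in HZ, 818 and 735 in KO and 700 and 656 in WT (90.9 ± 0.236 and 21.3 ± 0.777 CPM, log2 fold change -2.10, adjusted p = 3.37e-27). *Gbp9* had 891 and 889 against 207 and 176 counts (-2.33), and *Gbp6* 2105 and 2105 against 860 and 843 (-1.41). HZ stood apart from both KO and WT at *Gbp4*. These genes are similar in sequence and may share reads. Of 28 interferon-stimulated genes, 4 were higher and 6 lower (median -0.08), and *Ifi27l2a* (349 and 411 against 92 and 95 counts, -2.13) and *Rsad2* (127 and 82 against 50 and 44, -1.25) were called lower. None of 18 MHC and antigen presentation genes was called.

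Circadian clock genes were lower as well, 11 of 17 without the fold threshold against 3 higher (median -0.47). The repressor *Nr1d2* had 3024 and 2691 counts in HZ and 1382 and 1301 in KO (-1.20, adjusted p = 2.58e-20), the output factor *Dbp* 601 and 512 against 287 and 275 (-1.09), *Nr1d1* 165 and 114 against 83 and 59 (-1.08) and *Rora* 74 and 69 against 10 and 12 (-2.79). *Per3* (-0.85) and *Hlf* (-0.96) fell by less. *Nfil3*, which opposes *Dbp* and *Hlf* on the same sites, rose (0.90). The core gene *Arntl* did not pass (-0.12, adjusted p = 0.576). The hour of harvest of each library is not given in the sources used here.

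Among the genes with the largest folds, *Gpr65*, a proton-sensing receptor, had 5 and 16 counts in HZ, 181 and 162 in KO and 0 in both WT libraries (log2 fold change 3.90, SE 0.35). Its value was 3.26 without the first HZ library and 5.00 without the second. The adjacent *Galc*, a lysosomal galactosylceramidase, had 73 and 64 against 558 and 538 counts, with 5 and 28 in WT (2.89, adjusted p = 9.76e-17). The Mrgpr family, which includes mast cell receptors for basic peptides, gave 3 of 8 genes called higher and none lower. *Mrgprb1* had 297 and 252 counts in HZ, 1465 and 1210 in KO and 76 and 79 in WT (2.17), and *Mrgprx2* 322 and 236, 940 and 976, and 71 and 79 (1.68). *Mrgprb2*, a receptor for compound 48/80, rose (0.95), from 1100 and 1041 to 2274 and 2184 counts. These paralogs may share reads. Other genes of this group were the axon-guidance coreceptor *Nrp1* (169 and 155 against 621 and 621, 1.83), the neuronal tubulin *Tubb3* (67 and 65 against 370 and 401, 2.44), the arrestin-like *Arrdc4* (20 and 36 against 179 and 143, 2.40), the lectin *Clec10a* (94 and 82 against 376 and 281, 1.79), *Crisp1* (1.79) and the unnamed locus *LOC118568653* (1.75). *Srp54b* was also called (3.83), but its KO libraries had 995 and 234 counts and the WT libraries 620 and 43, and near-identical copies may share its reads.

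Besides *Hdc* and the guanylate-binding proteins, large losses were those of the sorting receptor *Sorl1* (370 and 364 against 57 and 64 counts, -2.71, with 1710 and 2010 in WT), the inhibitory receptor *Lag3* (170 and 176 against 30 and 29, -2.66) and the transcription factor *Creb5* (186 and 183 against 36 and 28, -2.63). The ubiquitin ligase *Fbxo32* (-2.21), the secreted peroxidase *Gpx3* (-2.07), *Hmcn2* (-2.35), *Adamtsl1* (-2.03) and *Itm2a* (119 and 141 against 32 and 38 counts) fell too. *Enc1*, an actin-binding Kelch protein, had counts of 7829 and 7450 in HZ, 2324 and 2074 in KO and 2296 and 2306 in WT (-1.91, adjusted p = 3.22e-34). *Fam177a2* (-2.37) has close copies that may share its reads.

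The resting WT libraries placed HZ and KO against littermates with both copies, without a test. Of the 158 genes higher in KO, WT was nearer to KO for 104 (65.8%), and of the 252 lower genes for 100 (39.7%), against 56.6% of all genes tested. For the 12 called immediate-early genes WT was nearer to KO in 11, and in 8 it lay beyond KO on the far side from HZ. *Fosb* was at 76.1 CPM in HZ, 380 in KO and 630 in WT, and *Nr4a1* at 31.6, 123 and 324. Among the 38 S phase genes that rose, WT was nearer to KO in 36 and beyond it in 33, as at *Rrm2* with 36.7, 63.1 and 136 CPM. At those 8 immediate-early and 33 S phase genes the order from lowest to highest was HZ, KO, WT. *Hdc* (109, 17.0 and 126 CPM) and *Mrgprb1* (8.10, 36.6 and 2.28) were genes at which KO stood apart from both.

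KO and HZ were also compared after 1 h of antigen. Resting and stimulated values came from different libraries, although their cultures may be shared. Of the 158 genes higher at rest, 84 had the same sign after stimulation and 13 were called in the same direction, and the median went from 1.42 to 0.05. For the 252 lower genes these values were 154, 36 and -1.50 to -0.25. The interaction, which tests whether the difference itself changed between the 2 states, was positive at 20.2% and negative at 21.3% of all genes (adjusted p under 0.05). It pointed toward a smaller difference for 105 of the 158 and 126 of the 252. Both sets were chosen for a large resting value, so the 2 states are not compared on equal terms in them. In all, the stimulated comparison called 89 genes higher (0.729%) and 167 lower (1.37%), and 12.9% and 12% of genes without the fold threshold.

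*Jun* went from 2.29 at rest to 0.13 after antigen and *Atf3* from 3.67 to -0.05 (adjusted p = 0.30). *Fos* reversed from 1.30 to -0.35 and *Egr2* from 1.71 to -0.26. Over the 34 immediate-early genes the median went from 0.86 to 0.05, with 22 interaction tests negative and 2 positive. *Gbp4* went from -2.10 to 0.54. *Hdc* was lower after antigen too, at 14428 and 12765 counts in HZ and 8779 and 8360 in KO, by -0.52.

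Most S phase genes went from higher to lower. After antigen 41 of 43 were lower and 1 higher in KO (median -0.63, against 0.56 at rest), and the interaction was negative in 41 and positive in none. *Rrm2* went from 0.78 to -1.13 and *Mcm2* from 0.80 to -0.66. Of 54 G2/M genes 51 were lower and none higher after antigen (median -0.95), with *Ccna2* at -1.18, *Ccnb2* at -1.05 and the S phase regulator *E2f2* at -1.23. *Il9r* (-1.36 and -1.43), *Ddc* (-1.02 and -1.13), *Ctsg* (-1.03 and -1.14) and *Sorl1* (-2.71 and -1.90) were lower in both states, and *Galc* (2.89 and 1.74) and *Gpr65* (3.90 and 1.86) higher in both.

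**Figure D4:**
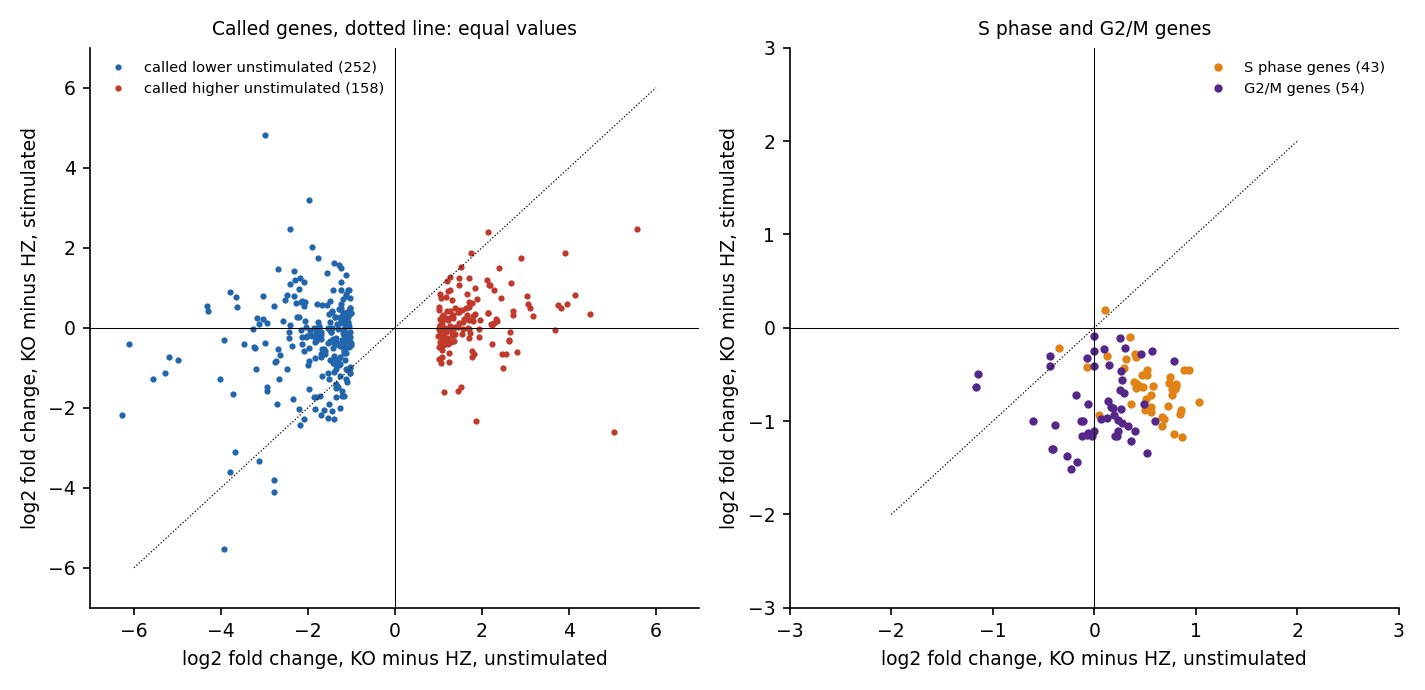
KO minus HZ log2 fold change at rest (horizontal axis) and after 1 h of antigen (vertical axis), for the 410 genes called at rest (left) and for 43 S phase and 54 G2/M genes (right), with a dotted line where both are equal. On the left the medians are 1.42 (red) and -1.50 (blue) at rest and 0.05 and -0.25 after antigen. On the right 41 of the 43 S phase genes sit right of 0 at rest, and 41 passed the test below 0 after antigen.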

How the data were processed

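RNA of 12 BMMC libraries was sequenced, and the 4 resting HZ and KO libraries (30550159 to 33994669 counts each) were compared. The authors deposited raw read counts per gene for 16234 genes, of which 172 had no count, and a table of FPKM values, which are counts the authors scaled by gene length and depth. The submitters' processing notes name fastp, HISAT2, HTSeq and GRCm39. Whether counting used strand is not given in the sources used here, so reads of overlapping antisense genes cannot be told apart.

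Genes were kept by filterByExpr (12208 genes), scaled by TMM and fitted in edgeR 4.0.16 (R 4.3.3) with 6 group means, 1 for each genotype and treatment. All 12 libraries shared 1 estimate of the spread. KO minus HZ was tested at rest by the quasi-likelihood test, two-sided, with Benjamini-Hochberg adjustment over all genes tested. A gene was called with an adjusted p under 0.05 and a change of 2-fold or more. The difference between states was an interaction in the same fit, tested without a fold threshold. The median SE was 0.07 on the log2 scale in genes that averaged 100 counts or more. Only the resting KO minus HZ test was tried on simulated counts with known changes, drawn from means and spread taken from the fit. There limma was run on log2(CPM + 1). The interaction, the gene lists and the promoter counts were not simulated. DESeq2 1.42.0 and limma 3.58.1 on log2(FPKM + 1) were alternatives, with other scalings, filters, sample sets, a replicate block and each library left out.

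Named genes were, in each direction, the 15 largest called changes with no overlap of libraries and an average of 100 counts or more in the genotype with the higher level, *Elk4*, genes the study measured, and called members of gene lists. Other genes were named after their values were seen. The libraries compared and the lists were chosen with earlier results of these data known. The ERK feedback, ER chaperone, circadian, guanylate-binding protein and Mrgpr lists were chosen after the values of this comparison were seen. So were KEGG's ribosome biogenesis, aminoacyl-tRNA, spliceosome, proteasome and ER protein processing pathways. S phase and G2/M lists are those of the Seurat package. Promoter windows and gene order came from RefSeq tables on GRCm38.p6, matched by NCBI Gene number for 12163 of the 12208 genes, and no coordinates were carried over to GRCm39. Sex-linked genes were not analysed here, and some genes that the rule names are not reported here.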

Additional observations from a re-analysis of the deposited data

Results flagged for a closer look

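The KO minus HZ difference was itself different between stimulated and resting BMMCs at many genes, by the interaction in edgeR's quasi-likelihood fit at an adjusted p below 0.05. The stimulated minus resting change was positive at 2465 genes and negative at 2602, of 12208 tested, which does not say whether the difference grew or shrank. Values below are the stimulated minus the resting log2 fold change, with 2 libraries in each group.

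Of the genes higher in KO at rest, it changed by -3.72 at *Atf3*, -3.32 at *Srp54b* (whose replicates disagreed), -2.92 at *Fosl1*, -2.16 at *Jun*, -2.10 at *Fosb*, -2.04 at *Gpr65*, -1.76 at *Nr4a1*, -1.68 at *Tubb3*, -1.63 at *Crisp1*, -1.50 at both *Nrp1* and *Clec10a*, -1.15 at *Galc* and -1.11 at *Mrgprb1*. Of the genes lower in KO at rest, it changed by 3.17 at *Fbxo32*, 3.12 at *Gbp9*, 2.72 at *Gpx3*, 2.64 at *Gbp4*, 2.16 at *Hdc*, 1.95 at *Creb5*, 1.92 at *Fam177a2*, 1.82 at *Adamtsl1*, 1.73 at *Ifi27l2a*, 1.70 at *Enc1* and 1.37 at *Lag3*. These genes were picked for a large resting difference, so the 2 states are not compared on equal terms.

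Of the cell cycle, cytokine and synaptogyrin genes named in the report, *E2f2* changed by -1.67, *Ccna2* by -1.32 and *Tnf* by -1.30, and *Syngr1*, at 1539 and 1568 counts in resting HZ and 1862 and 1736 in resting KO, by 1.20. The cause of these differences was not tested.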

How the results depend on the processing

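No named gene past its threshold changed sign under an alternative in which it was tested singly, and of the 410 genes called, 409 kept their sign without the first resting KO library. *Cdk2*, which did not pass, was at -0.03 without the second resting KO library and passed at 0.18 without the first, and *Ccna2* passed by library totals and by limma on FPKM. The counts of genes higher and lower moved by more than 1.5 times with the fold threshold and with limma on FPKM, where unit and test change together: 2854 and 2661 without a fold threshold, 590 and 597 at 1.5-fold, 41 and 38 by limma on log2(FPKM + 1) with a mean of at least 0.5, 40 and 38 without that filter, and 100 and 98 with a pseudocount of 0.1. Both pseudocounts pull the folds of low genes toward 0. DESeq2 called 150 and 248, its size factors in edgeR 153 and 265, and library totals 177 and 242. With each library left out in turn the counts were 133 to 163 higher and 208 to 241 lower, of which 113 to 123 and 170 to 189 were among the genes called with all libraries, the *Elk4* log2 fold change was -0.36 to -0.49, and the interaction counts were 2159 to 2270 and 2302 to 2520. The replicate numbers did not pair the libraries (correlation of deviations 0.04 between HZ and KO), and with a replicate block the counts were 158 and 253, *Elk4* was at -0.43 and the interactions were 2488 and 2625. Library totals gave 2054 and 3087 interactions. Of the called genes tried singly, *Srp54b*, *Arrdc4*, *Nrp1*, *LOC118568653*, *Sorl1*, *Creb5*, *Fam177a2*, *Hmcn2*, *Fbxo32* and *Adamtsl1* were not called by limma on log2(FPKM + 1) without a filter, *Srp54b* by its adjusted p and the others by their fold. *Ccl3*, which passed by adjusted p alone, no longer did under 8 alternatives and *Ccl4* under 5. Genes under 20 counts, 18 of those called higher and 30 of those called lower, are limited by depth, and 2 libraries a group limit every p-value.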

Other observations

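Several abundant genes outside the lists were called, and were chosen here after their values were seen. *Txnip*, an inhibitor of thioredoxin and of glucose uptake, had 18605 and 17699 counts in HZ, 48302 and 46054 in KO and 17761 and 18960 in WT (log2 fold change 1.27), so that KO stood apart. Its relative *Arrdc4* was higher by 2.40, and *Txnip* was still higher after antigen (0.94). The activation marker *Cd69* (1.11), the small GTPase *Rhob* (1.39) and the tubulin *Tuba1c* (1.44) were higher, and at each of these WT was near KO.

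In KEGG's lysosome pathway 23 of 113 genes (20.4%) were higher and 46 (40.7%) lower without the fold threshold (median -0.05). The shares of all genes were 23.4% and 21.8%, so only the lower share was above its background. *Cd68*, *Ctsl*, *Ctss*, *Galc* and *Lgmn* were called higher, and *Atp6v0d2* and *Ctsg* lower. *Cd68*, also a macrophage marker, had 718 and 670 counts in HZ and 1526 and 1558 in KO (1.04).

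A run was defined as called genes of the same direction next to each other among the genes tested. With 1.29% of all genes called higher and 2.06% lower, there were 18 runs, of 40 genes in all. Whether this is more than those shares alone would give was not tested. They include *Galc* and *Gpr65* on chromosome 12 with *Gm40892* (1.26), *Clec4d* and *Clec4e* (2.24 and 1.57), *Tmem176b* and *Tmem176a* (1.34 and 1.32), *Mc1r* and *Tubb3* (1.48 and 2.44), and *Creb5* and *Cpvl* (-2.63 and -1.42).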
